A study of Rattus norvegicus with 4 samples.

Results

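The vascular endothelial growth factor (VEGF) and angiopoietin system was examined as 10 rat genes, 7 ligands (Vegfa, Vegfb, Vegfc, Vegfd, Pgf, Angpt1 and Angpt2) and 3 receptors (Kdr, Flt1 and Nrp1). The genes were chosen by name, with earlier results of these data known. Their values come from the probe sets that carry a member as their single gene symbol. They were measured by 16 of 31042 probe sets, 9 for the ligands and 7 for the receptors, and make up 10 of 14217 named genes. L6 is a rat skeletal myoblast line derived from the Wistar strain according to the labels. RNA was profiled from wild-type cells (L6-WT) and from cells with constitutive expression of human HGF (L6-HGF), each grown as a monolayer and as a cell sheet that came off a temperature-sensitive dish, on 1 Affymetrix array per condition and 4 arrays in all. The human gene was carried into L6-HGF cells by the retroviral vector pBabepuro, with puromycin selection, and a vector control was not analysed here, so that expression of hHGF, vector and selection cannot be told apart. The comparisons bear on whether hHGF, or growth as a sheet, went along with altered expression of the angiogenic factors that myoblasts themselves make.

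VEGF ligands are secreted dimers that drive the growth of blood and lymph vessels. VEGF-A, the product of Vegfa, binds the tyrosine kinase receptors VEGFR1 (Flt1) and VEGFR2 (Kdr, also called Flk1). Of these tyrosine kinase receptors, PlGF (Pgf) and VEGF-B bind only Flt1, while VEGF-C and VEGF-D act mainly on VEGFR3 (Flt4). Nrp1 is a co-receptor that binds VEGF-A and also class 3 semaphorins. The angiopoietins act on the endothelial receptor Tie2 (Tek), which Angpt1 activates and which Angpt2 often blocks. Skeletal muscle cells are known as a source of VEGF-A for the surrounding capillaries, and low oxygen induces Vegfa through HIF transcription factors.

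The deposited values are log2 values in which each probe set was centred on the median of its 4 arrays. They keep differences between arrays but no signal level, so a level of 0 marks the middle of the 4 arrays for that probe set and does not mean absence, and levels of different genes cannot be set against each other. No difference has a replicate check, because each condition is 1 array, and no permutation of these single arrays could reach a p under 0.05. For technical spread, log2 differences of the 45 probe sets against bacterial spike-in transcripts had an SD between 0.12 and 0.22 in the 4 comparisons, and in the 3061 genes with 2 probe sets these differed by a median of 0.16 to 0.18. The L6-HGF sheet array had the widest spread of centred values, with an SD of 0.28 over all probe sets as compared to 0.20 to 0.22 for the others. Of 9 measured myoblast markers, Mymk was the 1 past 2-fold in any comparison, and since levels are lost, neither the presence of these markers nor the absence of those of other cells could be checked.

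Vegfa, Angpt1, Pgf and Nrp1 were the members past 2-fold in at least 1 comparison, and their patterns over the arrays differed. Vegfa was highest in the L6-HGF sheet, Pgf was high in both sheets, and Angpt1 and Nrp1 were lower in L6-HGF than in L6-WT cells. Vegfb, Vegfc, Vegfd, Angpt2, Kdr and Flt1 lay within 2-fold in all 4 comparisons.

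**Figure D1:**
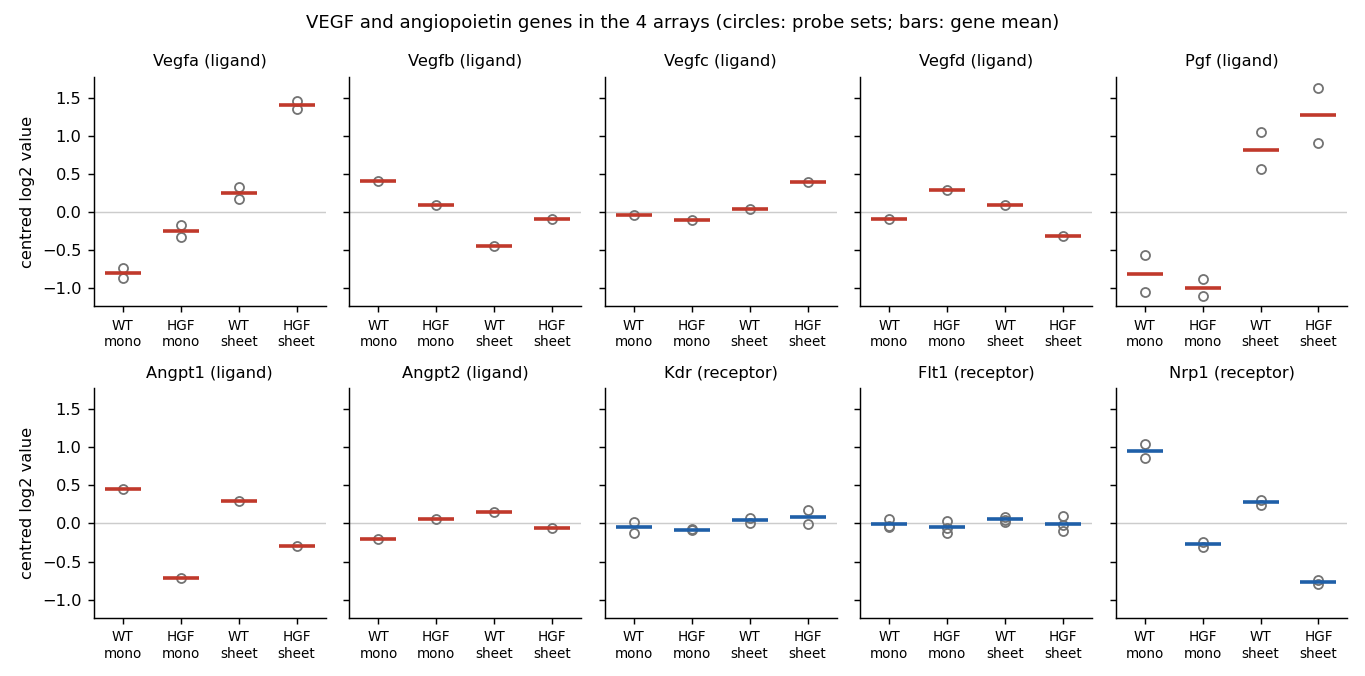
Centred log2 value (vertical axis) of the 10 genes in the 4 arrays (horizontal axis: L6-WT and L6-HGF as monolayer, "mono", and as sheet), with 1 circle per probe set and a bar at the mean of the gene's probe sets. Vegfa is highest in the L6-HGF sheet at 1.40, Pgf is above 0 in both sheets, Nrp1 and Angpt1 are lower in L6-HGF than in L6-WT within each format, and the means of Kdr and Flt1 lie between -0.08 and 0.08.

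The upstream sequences of the genes of the main ligands are shown first, because Vegfa and Pgf were the 2 members above 2-fold in the sheets of both cell lines. The sequences are the 250 bases before the annotated start in RefSeq (build GRCr8), 5′ to 3′ on the gene's strand. Capitals mark each match to the GC box GGGCGG, a binding site of SP family factors, or to ACGTG, both searched on either strand. ACGTG is the form of the hypoxia response element core that starts with A, and the form GCGTG was not searched. The Vegfa window lies on the plus strand at chr9:22452604-22452853 and the Pgf window on the minus strand at chr6:110557748-110557997.
Vegfa: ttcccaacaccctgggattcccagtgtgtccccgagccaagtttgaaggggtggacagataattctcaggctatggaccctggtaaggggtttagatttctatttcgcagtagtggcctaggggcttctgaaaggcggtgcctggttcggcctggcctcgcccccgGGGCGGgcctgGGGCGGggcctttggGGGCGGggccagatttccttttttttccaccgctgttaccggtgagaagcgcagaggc
Pgf: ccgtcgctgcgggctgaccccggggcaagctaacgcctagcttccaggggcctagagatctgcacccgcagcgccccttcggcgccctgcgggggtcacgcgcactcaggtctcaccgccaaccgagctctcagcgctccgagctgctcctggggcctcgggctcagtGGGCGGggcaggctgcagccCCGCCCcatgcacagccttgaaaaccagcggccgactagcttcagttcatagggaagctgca

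The Vegfa window held 3 GC boxes and the Pgf window 2, and no 2 matches overlapped. GC boxes were present in 30.5% of 33469 such windows, and in 6 of the 9 windows found for 8 of the 10 members (those of Vegfa, Vegfb, Vegfc, Pgf, Kdr and Flt1). The second annotated start of Vegfa, at chr9:22460028-22460277, and the windows of Nrp1 and Vegfd held none. The share of G and C was 60.4% to 73.2% in the 6 windows with a GC box and 40.8% to 66.4% in those without. Its median over all windows was 51.2%, so the 6 of 9 and the 30.5% come from windows of unlike base composition. The letters ACGTG were in none of the 9 windows and in 16.6% of all windows, which says nothing about sequence outside these 250 bases. Nor does it cover the form GCGTG. That form or its reverse complement CACGC is present, unmarked, in the windows of Pgf, Vegfb, Kdr, Flt1 and Nrp1. Its share over all windows was not counted. A further motif, the cAMP response element TGACGTCA, was found in the Flt1 window and in 1.59% of all windows, and the AP-1 site TGACTCA in no member window and in 4.05% of all. Angpt1 and Angpt2 were not searched.

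Vegfa, the ligand of the main angiogenic pathway, had centred log2 levels of -0.80 in the L6-WT monolayer, -0.25 in the L6-HGF monolayer, 0.25 in the L6-WT sheet and 1.40 in the L6-HGF sheet. Both sheets were above both monolayers, and within each format the L6-HGF array was above the L6-WT array. Its probe sets kept the same order of the arrays, and 1 of them had levels of -0.73, -0.17, 0.17 and 1.35 in that order of arrays, and the other -0.87, -0.32, 0.32 and 1.45.

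As compared to L6-WT, L6-HGF cells had 1.46-fold more Vegfa signal in monolayers (log2 difference 0.55) and 2.22-fold more in sheets (1.15). In sheets this was rank 46 from the highest among 14217 genes, and in monolayers rank 220. The difference between both effects was 0.60 (log2), a size reached by 6.77% of all genes. Its probe sets had 0.58 and 0.62. With quantile normalization, which could act only on the centred values, Vegfa had 0.69 in monolayers and 0.81 in sheets, so the call past 2-fold in sheets was lost and the difference between the effects was 0.11.

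Sheets had more Vegfa signal than monolayers in both lines, by 2.07-fold in L6-WT (1.05 in log2) and by 3.14-fold in L6-HGF (1.65). The L6-HGF sheet was 2.20 (log2) above the L6-WT monolayer, which is the widest gap between any of its arrays. With quantile normalization, the sheet differences were 1.23 and 1.34.

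Pgf encodes PlGF, which binds Flt1. Its mean level was -0.81 in the L6-WT monolayer, -0.99 in the L6-HGF monolayer, 0.81 in the L6-WT sheet and 1.27 in the L6-HGF sheet. The sheets lay far above the monolayers, while arrays of the same format lay closer together, 0.18 apart in monolayers and 0.46 in sheets. Of the 2 probe sets, 1 had levels of -0.57, -0.88, 0.57 and 0.90 in that order, and the other -1.05, -1.10, 1.05 and 1.63.

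In L6-WT cells the sheet had 3.07-fold more Pgf signal than the monolayer (log2 difference 1.62, rank 27 from the highest), and in L6-HGF cells 4.78-fold more (2.26, rank 23). Pgf had the largest sheet difference of the 10 members in each line. Its probe sets were 0.97 apart in L6-WT, with 1.13 and 2.11, and 0.95 apart in L6-HGF, with 1.78 and 2.73. They differ in size and both lie past 2-fold. Between the cell lines, Pgf had a log2 difference of -0.18 in monolayers, with -0.31 and -0.05 from its probe sets, and of 0.46 in sheets, with 0.33 and 0.58. In sheets this value was 0.03 with quantile normalization.

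Vegfb, a ligand of Flt1 that is abundant in muscle, had levels of 0.41 in the L6-WT monolayer, 0.09 in the L6-HGF monolayer, -0.45 in the L6-WT sheet and -0.09 in the L6-HGF sheet. It was thus lowest where L6-WT cells formed a sheet, with a log2 difference from the monolayer of -0.86 in L6-WT (1.81-fold lower, rank 122 from the lowest) and of -0.18 in L6-HGF. Between the lines it had -0.32 in monolayers and 0.36 in sheets. The sheet difference of Vegfa exceeded that of Vegfb by 1.91 in L6-WT and by 1.83 in L6-HGF, as a difference between log2 changes and not between levels.

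The lymphatic ligands Vegfc and Vegfd stayed within 2-fold. Vegfc had levels of -0.03 in the L6-WT monolayer, -0.10 in the L6-HGF monolayer, 0.03 in the L6-WT sheet and 0.40 in the L6-HGF sheet, so that 3 arrays lay together and the L6-HGF sheet above them. Vegfd had -0.10, 0.28, 0.10 and -0.31 in the same order, with its lowest level in the L6-HGF sheet. L6-HGF minus L6-WT (log2) was 0.38 in monolayers and -0.41 in sheets. The change between these, -0.79, was the largest in size of the 10 members and was reached in size by 3.40% of genes.

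Angpt1, the activating ligand of Tie2, had levels of 0.45 in the L6-WT monolayer, -0.72 in the L6-HGF monolayer, 0.30 in the L6-WT sheet and -0.30 in the L6-HGF sheet. Both L6-WT arrays were above both L6-HGF arrays. In monolayers L6-HGF cells had 2.25-fold less Angpt1 signal (log2 difference -1.17, rank 28 from the lowest of 14217 genes) and in sheets 1.51-fold less (-0.59, rank 499 from the lowest). The sheet differed from the monolayer by -0.15 in L6-WT and by 0.42 in L6-HGF cells. A single probe set measured the gene, so no second value within the array is at hand.

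Angpt2, which competes with Angpt1 for Tie2, had levels of -0.20 in the L6-WT monolayer, 0.06 in the L6-HGF monolayer, 0.16 in the L6-WT sheet and -0.06 in the L6-HGF sheet. All 4 lay within 0.36 of each other. As a difference between changes, Angpt1 moved by -1.43 (log2) relative to Angpt2 between L6-WT and L6-HGF monolayers and by -0.38 between the sheets. Both angiopoietins rest on 1 probe set each.

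Nrp1, the receptor shared by VEGF-A and semaphorins, had levels of 0.95 in the L6-WT monolayer, -0.27 in the L6-HGF monolayer, 0.27 in the L6-WT sheet and -0.77 in the L6-HGF sheet. The L6-WT arrays were above the L6-HGF arrays, and in each line the monolayer was above the sheet. The probe sets gave 1.04, -0.24, 0.24 and -0.74 and 0.86, -0.30, 0.30 and -0.80.

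In log2, L6-HGF minus L6-WT was -1.22 for Nrp1 in monolayers, at rank 25 from the lowest, and -1.04 in sheets, at rank 118. The difference between the 2 effects was 0.18, a size that 49.0% of genes reached, and 0.53 with quantile normalization. In sheets its probe sets had -0.98 and -1.11, on either side of 2-fold, and with quantile normalization the mean was -0.84, so that the call past 2-fold in sheets was lost. The sheet was lower than the monolayer by 0.68 in L6-WT and by 0.49 in L6-HGF, both within 2-fold. With quantile normalization the value in L6-HGF was -0.25.

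The signalling receptors Kdr and Flt1 varied little. Kdr had levels of -0.05 in the L6-WT monolayer, -0.08 in the L6-HGF monolayer, 0.04 in the L6-WT sheet and 0.08 in the L6-HGF sheet. Flt1 had -0.01, -0.05, 0.05 and -0.01 in the same order. Over the 5 probe sets of both genes, differences in the 4 comparisons lay between -0.19 and 0.25, and were smaller in size than the largest differences of the bacterial control probe sets, 0.34 to 0.51. Whether these receptors were expressed at all cannot be read from centred values, and a transcript near background would also give values near 0.

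**Figure D2:**
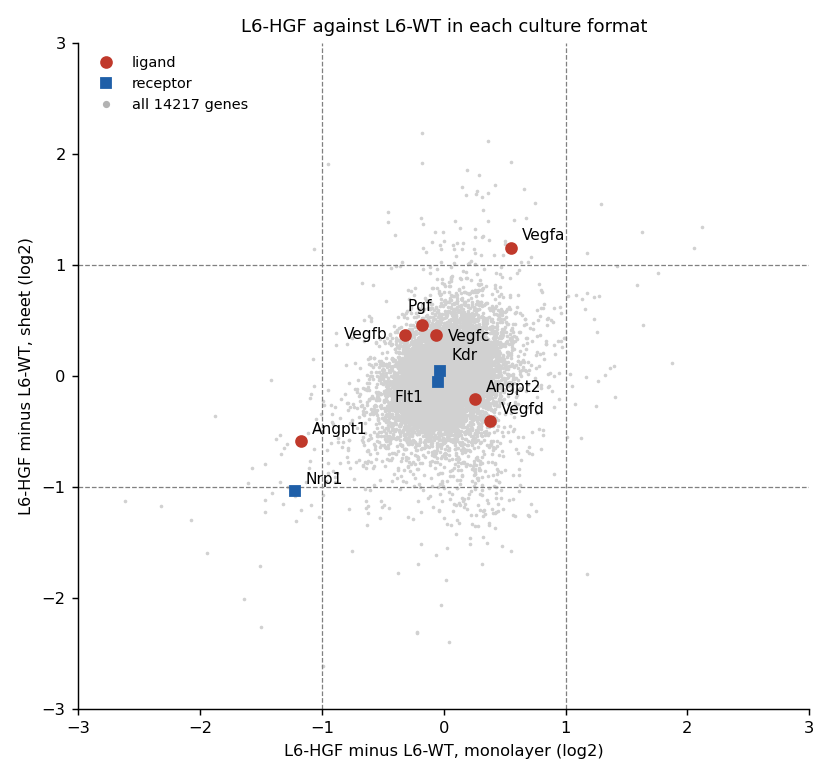
Excess of L6-HGF over L6-WT (log2) for monolayers on the horizontal axis and for sheets on the vertical axis, shown for the 7 ligands (circles) and 3 receptors (squares) over all 14217 genes (grey), with dashed lines at 2-fold. Vegfa lies at 0.55 and 1.15 and Nrp1 at -1.22 and -1.04.

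Counted by comparison, L6-HGF monolayers had 0 of 10 members higher by over 2-fold, against 0.225% of all genes, and 2 lower (Angpt1 and Nrp1), against 0.309% of all genes. L6-HGF sheets had 1 of 7 ligands higher (Vegfa), against 0.492% of genes, and 1 of 3 receptors lower (Nrp1), against 0.95%. Over the 7 ligands, the median log2 difference between the lines was -0.07 in monolayers and 0.36 in sheets, with medians over all genes of 0.0016 and -0.02. The 3 receptors had medians of -0.05 and -0.06.

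Between sheet and monolayer, 2 of 7 ligands (Vegfa and Pgf) were higher by over 2-fold in L6-WT, against 0.717% of genes, and again in L6-HGF, against 1.17%. No receptor passed 2-fold there, and no member was lower by over 2-fold, against 0.492% and 2.57% of genes. The medians of the ligands were 0.19 and 0.42 and those of the receptors 0.06 and 0.04, with 0.03 and 0.03 over all genes. None of the 10 members passed 2-fold in the difference between the hHGF effects of sheet and monolayer, against 0.471% of genes above and 1.43% below. The comparisons share arrays, since each array enters 1 comparison between lines and 1 between formats, so they are not independent.

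**Figure D3:**
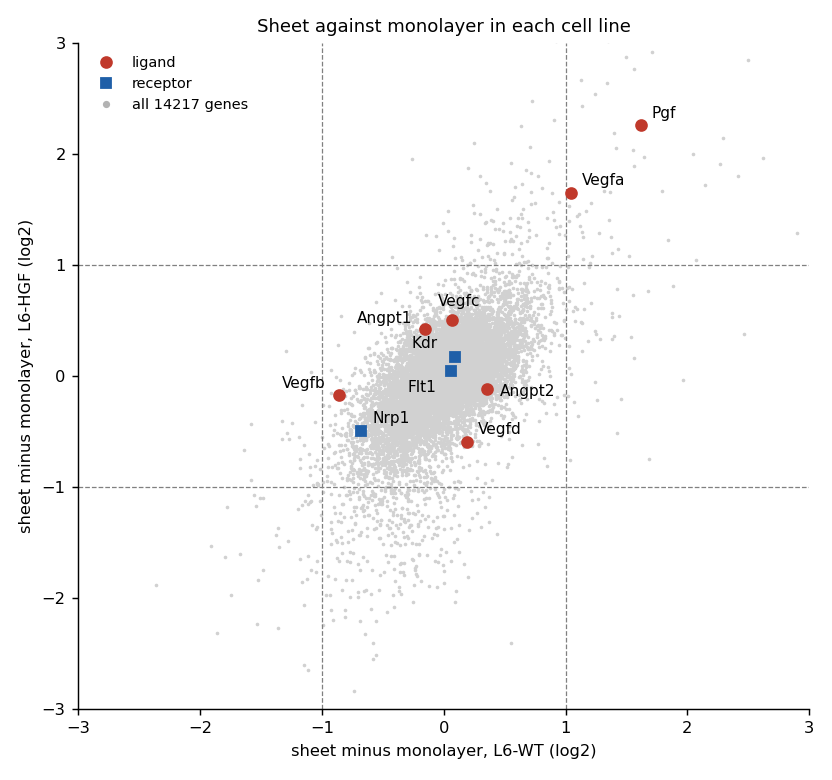
Log2 difference between sheet and monolayer in L6-WT (horizontal axis) and in L6-HGF cells (vertical axis) for the 7 ligands (circles) and 3 receptors (squares) over all 14217 genes (grey), with dashed lines at 2-fold. Pgf and Vegfa are past 2-fold in both lines, Nrp1 and Vegfb are below 0 in both, and 13 genes lie outside the axes.

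A limma model over all 31042 probe sets, with terms for cell line and format and 1 residual degree of freedom, gave 0 probe sets at an adjusted p under 0.05 for either term (0% of those tested). For the cell line term, 2977 probe sets (9.59%) had an unadjusted p under 0.05, among them 5 of the 16 member probe sets, those of Vegfa, Nrp1 and Angpt1. Their estimates for L6-HGF as compared to L6-WT were 0.87 and 0.84 for Vegfa, -1.13 and -1.13 for Nrp1 and -0.88 for Angpt1, each with an adjusted p of 0.505 in limma. For the format term, 6333 probe sets (20.4%) had an unadjusted p under 0.05. Among them were 6 member probe sets, those of Pgf, Vegfa and Nrp1. Pgf had estimates of 2.42 (SE 0.19) and 1.46 (SE 0.19), Vegfa 1.48 (SE 0.18) and 1.22 (SE 0.19), and the lowest adjusted p among the members in limma was 0.158. None of these differences therefore passed correction.

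The gene lists described from here on, like the members, were chosen with earlier results of these data known. Of 8 other receptors and co-receptors of VEGF and the angiopoietins, none passed 2-fold in any comparison. Of all genes, 0.225% to 2.57% passed 2-fold in a given direction in the 4 comparisons. A count of 0 therefore does not set so short a list apart. The Tie2 gene Tek had log2 differences of 0.02 in monolayers and -0.01 in sheets between the lines. Flt4, the receptor of VEGF-C and VEGF-D, had 0.10 and -0.00027. The second neuropilin Nrp2 had -0.10 and 0.28, as compared to -1.22 and -1.04 for Nrp1. Medians of this list lay between 0.03 and 0.08 in the 4 comparisons.

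Of 12 class 3 semaphorins and plexins, the other partners of neuropilins, 0 passed 2-fold in any comparison. This too is against 0.225% to 2.57% of all genes in a given direction, so it does not set the list apart. Between the lines their median was -0.14 in monolayers, where 9 of 12 lay below 0, and 0.0049 in sheets. The medians over all genes were 0.0016 and -0.02. Sema3e had the lowest value, -0.66, in monolayers. Between sheet and monolayer their medians were -0.06 in L6-WT and 0.14 in L6-HGF.

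Of 5 measured relatives of the angiopoietins among 8 listed, 1 passed 2-fold. It did so between the L6-WT sheet and monolayer, where 0.717% of all genes were higher by over 2-fold. Angpt4, a further ligand of Tie2, had levels of -1.06 in the L6-WT monolayer, -0.07 in the L6-HGF monolayer, 0.07 in the L6-WT sheet and 0.41 in the L6-HGF sheet. It was lowest in the L6-WT monolayer, and the log2 difference between sheet and monolayer was 1.13 in L6-WT and 0.48 in L6-HGF. Between the lines it was 0.99 in monolayers, just within 2-fold. The medians of the list were -0.20 and -0.02 between the lines and 0.18 and 0.42 between the formats.

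Of 10 measured genes that process or trap VEGF ligands, Adamts1, a secreted protease that can bind VEGF-A, was the 1 past 2-fold. Its levels were 0.31 in the L6-WT monolayer, -0.31 in the L6-HGF monolayer, 0.98 in the L6-WT sheet and -0.37 in the L6-HGF sheet. Both L6-HGF arrays were below both L6-WT arrays, by 1.34 in sheets (2.54-fold) and by 0.63 in monolayers (log2). Between the sheets, 0.95% of all genes were lower by over 2-fold in L6-HGF. The list medians in the 4 comparisons lay between -0.11 and 0.08.

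Of 33 measured genes of signalling below the VEGF receptors among 40 listed, Sphk1, which makes sphingosine-1-phosphate, was the 1 past 2-fold. It had levels of 0.51, 0.16, -0.16 and -1.06 in the L6-WT monolayer, L6-HGF monolayer, L6-WT sheet and L6-HGF sheet, and the L6-HGF sheet was 2.33-fold below its monolayer (log2 difference -1.22). In that comparison 2.57% of all genes were lower by over 2-fold. Between sheet and monolayer, 26 of 33 genes in L6-WT and 24 of 33 in L6-HGF lay below 0, with medians of -0.21 and -0.12. The medians over all genes were 0.03 and 0.03, and the share of all genes below 0 was not counted. Between the lines the medians were -0.03 in monolayers and -0.02 in sheets.

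**Figure D4:**
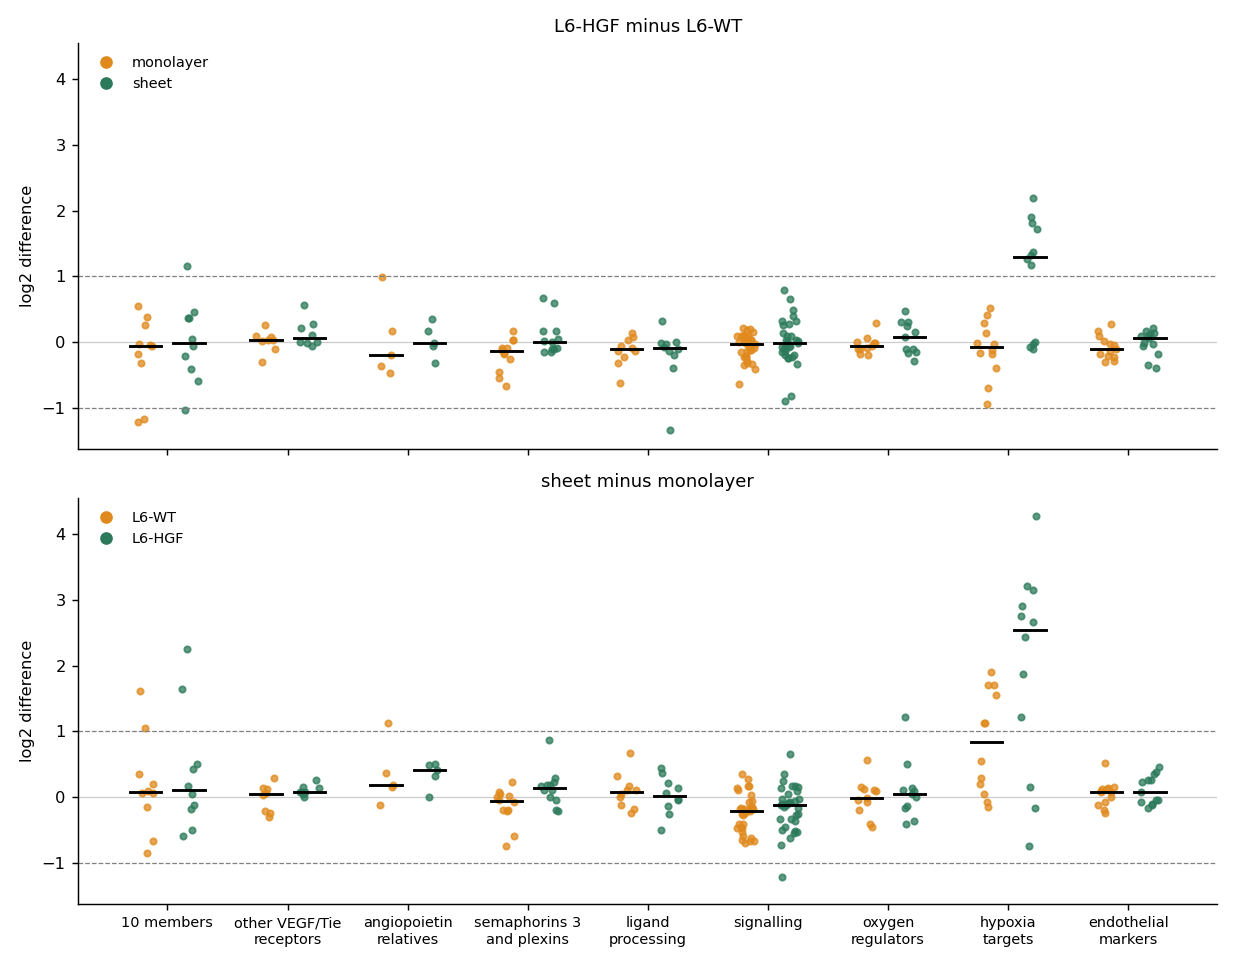
Log2 difference (vertical axis) of each gene in the 10 members and 8 gene lists (horizontal axis), between L6-HGF and L6-WT in monolayers and sheets (upper panel) and between sheet and monolayer in L6-WT and L6-HGF (lower panel), where points are genes, black bars are medians and dashed lines mark 2-fold. The hypoxia targets stand above the other lists in L6-HGF minus L6-WT sheets (median 1.30) and in sheet minus monolayer of L6-HGF (median 2.55).

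Genes that sense oxygen and known targets of low oxygen were set beside Vegfa. Of 11 measured oxygen-dependent regulators, Egln1, the prolyl hydroxylase that marks HIF proteins for decay and is itself induced by HIF, was the 1 past 2-fold, at 2.32-fold higher in the L6-HGF sheet than in its monolayer. In that comparison 1.17% of all genes were higher by over 2-fold. The HIF subunit genes Hif1a and Epas1 had log2 differences of 0.29 and -0.11 in monolayers and 0.31 and -0.16 in sheets between the lines. The medians of this list lay between -0.06 and 0.08.

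Of 12 hypoxia targets, a list chosen with earlier results of these data known, none passed 2-fold between the monolayers (median -0.07). In the L6-HGF sheet 8 of them exceeded the L6-WT sheet by over 2-fold (median 1.30), against 0.492% of all genes. None of the 12 was lower there by over 2-fold, against 0.95%. Between sheet and monolayer 6 were higher by over 2-fold in L6-WT (median 0.83), against 0.717% of genes. In L6-HGF 9 were higher (median 2.55), against 1.17%. The levels of Ankrd37 were -0.95 in the L6-WT monolayer, -1.13 in the L6-HGF monolayer, 0.95 in the L6-WT sheet and 3.14 in the L6-HGF sheet. Those of the vasodilator peptide gene Adm were -0.15, -1.10, 0.15 and 2.05. Ero1a, an oxidase of protein folding, and Bnip3, a mitochondrial autophagy gene, exceeded the L6-WT sheet by 1.81 and 1.18 (log2) in the L6-HGF sheet. Vegfa followed the same order of the 2 sheets. Between the monolayers, where Vegfa had 0.55, 4 of the 12 targets lay above 0 (Pfkfb4 with 0.51, Slc2a1 with 0.42, Ero1a with 0.29 and Car9 with 0.13) and 8 below 0, with Adm lowest at -0.95. The median over all genes between the monolayers was 0.0016. The targets Egln3, Pfkfb3 and Pfkfb4 stayed within 2-fold throughout, with log2 differences of the L6-HGF sheet from its monolayer of -0.16, 0.16 and -0.75. The part of oxygen in the values of Vegfa was not tested.

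Marker genes of other cells were read in the same way. Of 13 measured endothelial markers, 0 passed 2-fold in any comparison, against 0.225% to 2.57% of all genes in a given direction. Their medians lay between -0.11 and 0.08, and the median of their centred levels lay between -0.11 and 0.04 in the 4 arrays. Of 10 pericyte and smooth muscle markers, Pdgfrb was the 1 past 2-fold in the 4 comparisons, with 1.08 (log2) between the L6-HGF sheet and its monolayer, and the medians lay between -0.07 and 0.17. In that comparison 1.17% of all genes were higher by over 2-fold. The medians of the 9 myoblast markers lay between -0.23 and -0.08. For Mymk, L6-HGF minus L6-WT (log2) was -1.28 in monolayers and -1.002 in sheets, where 2.003-fold was barely past the threshold. Of all genes, 0.309% in monolayers and 0.95% in sheets were lower by over 2-fold. Of 10 fibroblast markers, 4 were higher in the sheet by over 2-fold in each line, against 0.717% of all genes in L6-WT and 1.17% in L6-HGF. These were Dcn at 3.36 and 2.39, Dpt at 3.34 and 3.48, Postn at 2.50 and 2.84 and Lum at 2.07 and 1.04 (log2, L6-WT and L6-HGF). Of the same 10 markers, 4 lay below 0 in L6-WT and 5 in L6-HGF. Col1a1 was the lowest, at -0.43 and -0.86. The median over all genes was 0.03 in each line. Between the lines, 8 of the 10 lay below 0 (L6-HGF minus L6-WT) in monolayers and all 10 in sheets. The medians over all genes were 0.0016 and -0.02. Dpt, Postn and Mfap5 were lower by over 2-fold in each format, against 0.309% of genes in monolayers and 0.95% in sheets. Fibroblast marker medians were -0.22 and -0.65 between the lines and 0.39 and -0.13 between the formats. The median of their centred levels was 0.13 in the L6-WT monolayer, -0.32 in the L6-HGF monolayer, 0.62 in the L6-WT sheet and -0.36 in the L6-HGF sheet. The part of such cells in the members' values was not tested, and fewer cells of a type and less RNA per cell cannot be told apart in bulk RNA.

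The genes nearest to 3 of the members were taken as those with the smallest Euclidean distance over the 4 centred values, as a description. Nearest to Vegfa were Pfkl, a subunit of the glycolytic enzyme phosphofructokinase (distance 0.16), the myosin heavy chain gene Myh1 (0.18), the protease inhibitor gene Serpinb1a (0.22), Ccdc181 (0.29) and Nampt, an enzyme of NAD synthesis (0.32). Levels of Pfkl were -0.75 in the L6-WT monolayer, -0.28 in the L6-HGF monolayer, 0.28 in the L6-WT sheet and 1.25 in the L6-HGF sheet. Within a distance of 1 lay 179 genes.

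Nearest to Nrp1 was Mymk, the fusion factor of myoblasts, at a distance of 0.08 and with levels of 1.02, -0.26, 0.26 and -0.74 in the same order of arrays. It was followed by the glutamate transporter gene Slc1a3 (0.24), Dzip1 (0.27), Olfml2b (0.34) and Rgs18 (0.35), and 757 genes lay within 1. Nearest to Angpt1 were Kcnip4 (0.18), Septin4 (0.19), the Notch target Hes1 (0.20), Acy3 (0.20) and Cib2 (0.22). There, 7629 genes lay within 1, since the range of Angpt1 over the arrays was 1.17 and most genes vary little.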

How the data were processed

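Total RNA of 4 cultures was hybridised to Affymetrix GeneChip Rat Genome arrays, 1 for each condition. RMA with normalization to the median was run by the authors, who deposited log2 values (RMA version not given in the sources). In the deposited log2 table, the median of each probe set over the 4 arrays is 0 within 5e-07. The base of the logarithm was checked on 20 probe sets, whose fold differences all lay within 0.01 of those the study lists.

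After 57 control probe sets were left out, 31042 were compared, of which 20826 had 1 gene symbol, 436 had several, and 9780 lacked an entry in the annotation at hand. A gene is the mean of its probe sets with 1 symbol. The Entrez identifiers of all 10 members matched the current rat gene table. The design has no test within a format, so a 2-fold threshold was used, and limma 3.58.1 (R 4.3.3) was fitted over all probe sets with terms for cell line and format, with Benjamini-Hochberg adjustment. Its residual also holds any true difference of the effects between formats. The 2-fold call was tried on simulated data with planted log2 changes of 1.5 and 3.0 in L6-HGF, and smaller changes were not simulated. Of 100 genes changed by 1.5, 98% passed 2-fold in monolayers and 97% in sheets. Of unchanged genes, 0.178% and 0.157% passed. The simulated noise was drawn from the observed differences of effects in these same 4 arrays. The share of unchanged genes that passed follows from that source and is no error rate for single arrays. Limma was also run on these simulated data, with its outcome not given here, and the other steps were not. Python 3.11.15, pandas 2.3.3, numpy 2.4.6 and matplotlib 3.10.9 were used. The number of arrays limits the precision.

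Members, 7 pathway lists and 4 marker lists were chosen with earlier results of these data known. Named were all members, with single probe sets for Vegfa, Pgf and members whose probe sets lay over 0.5 apart; list genes past 2-fold, at most 4 of each list; and the 5 genes nearest to Vegfa, Angpt1 and Nrp1. Other list genes and the probe sets of Nrp1 were named after their values were seen. Alternatives were the median of probe sets, leaving out probe sets that may cross-hybridise (_a_at, _s_at, _x_at), quantile normalization, array medians, a 1.5-fold threshold and limma with 1 term.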

Additional observations from a re-analysis of the deposited data

Results flagged for a closer look

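The 4 conditions have 1 array each, so the opposite signs given here were not tested. Between L6-HGF and L6-WT, 5 members had a positive log2 difference in 1 format and a negative one in the other. Vegfb had -0.32 in monolayers and 0.36 in sheets, a change of 0.68. Vegfc had -0.07 and 0.36, a change of 0.43. Pgf had -0.18 and 0.46, a change of 0.64, which was 0.15 with quantile normalization. Vegfd had 0.38 and -0.41, a change of -0.79, and Angpt2 had 0.26 and -0.21, a change of -0.47. Kdr also changed sign, with -0.03 and 0.04 and a change of 0.071, which is within the spread of the control probe sets.

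Between sheet and monolayer, opposite signs in L6-WT and L6-HGF were seen for Vegfd (0.19 and -0.59, a change of -0.79), Angpt1 (-0.15 and 0.42, a change of 0.58) and Angpt2 (0.36 and -0.12, a change of -0.47). The SD of the same change over 45 bacterial control probe sets was 0.19, and the largest in size was 0.69.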

How the results depend on the processing

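Of 200 single values of the members under 4 alternatives, 186 moved by less than the SD of the bacterial control probe sets and 14 by more, all of the 14 under quantile normalization of the centred values, and none of the values past 2-fold changed sign. The 1 value of any size that changed sign was that of Kdr between monolayers, which was 0.05 without the _a_at probe set. With quantile normalization, 0 members passed 2-fold between L6-HGF and L6-WT sheets as compared to 2, since Vegfa had 0.81 and Nrp1 -0.84, and 31 genes passed upward and 63 downward as compared to 70 and 135. That step gives each array the same spread, and the cause of the wider spread of the L6-HGF sheet was not tested. Between the L6-WT sheet and monolayer, 163 genes were higher as compared to 102. Between the L6-HGF sheet and monolayer, 241 were lower as compared to 366. At 1.5-fold, 4 members passed between the L6-WT sheet and monolayer as compared to 2, with Vegfb and Nrp1 added. Of all 14217 genes, 479 were then higher and 534 lower. Angpt1 was added between the L6-HGF and L6-WT sheets (313 genes higher and 509 lower). Vegfd was added between the L6-HGF sheet and monolayer (571 genes higher and 1035 lower). Between the monolayers the members were the same at 1.5-fold (173 genes higher and 184 lower). Limma with 1 term also gave 0 members at an adjusted p under 0.05 for cell line and for format. For cell line, 3 of the 16 member probe sets had an unadjusted p under 0.05 in limma, against 3.72% of all probe sets. For format, 5 of 16 did, against 17.1% of all. No paired analysis was possible because each group has 1 array and so no second replicate number to pair, beyond the limma fit, whose terms compare the lines within a format and the formats within a line. No array could be left out, since that empties a group. Signal over background is unknown, so dim probe sets could not be set apart.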
